A study of Mus musculus with 39 samples.

Results

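The steroidogenic and gonadotropin-response genes of granulosa and cumulus cells were followed through mouse oocytes, embryos made by in vitro fertilization (IVF), embryos made by somatic cell nuclear transfer (SCNT) and the cumulus cells that served as nuclear donors. The members were 10 genes, Scarb1, Star, Cyp11a1, Hsd3b1, Cyp19a1, Fshr, Lhcgr, Inha, Inhba and Amh, and were found as the array probes whose target accession belongs to one of these symbols in the RefSeq mouse annotation. They were read by 14 probes, out of 18879 genes and 41174 probes on the array, and the probe with the highest mean over all arrays stood for each of the 4 genes that had 2 probes. RNA was amplified in 2 rounds, labelled with Cy3 and hybridised to an Agilent 44 K one-colour array, 1 array per sample and 39 arrays in all. The study asked how far gene expression of cloned 2-cell embryos departs from that of fertilized ones, and whether treatment with trichostatin A (TSA), a histone deacetylase inhibitor, or injection of Spi-C mRNA, which encodes an ETS-family transcription factor, changes it.

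All groups came from (B6xDBA/2)F1 mice. Unfertilized oocytes (OC, n = 7) and cumulus cells (Cumulus, n = 4) were taken from females superovulated with gonadotropins, with complexes collected 15 h after hCG, a hormone that acts on the LH receptor. Each OC or embryo sample held 10 pooled oocytes or embryos, and each Cumulus sample held 500 cells. IVF embryos (n = 6) and SCNT embryos without TSA (TSA(–), n = 8) were cultured for 24 h to the 2-cell stage. TSA(+) embryos (n = 6) were SCNT embryos exposed to 5 nM TSA for 8 h from activation. Spi-C 1.0 and Spi-C 0.1 (n = 4 each) were SCNT embryos that received Spi-C mRNA at 1.0 or 0.1 mg/ml, and both together are called Spi-C NT (n = 8). The 22 SCNT arrays therefore all stood for embryos whose nuclei came from cumulus cells.

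In the ovary, granulosa cells take up cholesterol, carry it into mitochondria and turn it into progesterone, and they convert androgens from theca cells into oestrogen. Follicle-stimulating hormone and luteinizing hormone drive these steps through G-protein coupled receptors and cyclic AMP, and the same cells secrete inhibins, activins and anti-Müllerian hormone. After the ovulatory surge the cells around the oocyte luteinize, which is known to turn progesterone synthesis on and aromatase off.

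The level of a gene is given as the log2 of the processed intensity minus the log2 of the 75th percentile of its array, so that 0 is the level of the probe at that percentile. Such levels were compared between groups for 1 probe at a time and never between genes. A difference is called where limma gave an adjusted p under 0.01 over all 39537 probes tested, and it is printed as the log2 difference with its standard error (SE). The labels do not tie samples to separate animals or days of manipulation, so that p-values measure only the spread between these samples. In pooled samples, fewer cells that express a gene and less RNA per cell cannot be told apart.

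The Cumulus arrays carried the markers of their label. Of 10 granulosa and cumulus markers, 9 were well above background on every Cumulus array and Cd44 on none, and their summed level was 162 to 208 times the 75th percentile, against 5.55 to 10.9 times on all other arrays. The summed level of 10 oocyte markers was 1.14 to 2.11 times the 75th percentile in Cumulus and 374 to 3740 times elsewhere, with Bmp15 well above background on no Cumulus array. All 6 blood and immune markers were well above background on the Cumulus arrays, with summed levels of 30.9, 44.2, 108 and 116, and the oviduct list reached 46.3 to 62.5 times the 75th percentile there against 2.25 to 23.8 times elsewhere. The part of such cells in the Cumulus levels was not tested. IVF replicate 1 stood apart from the other IVF arrays in the blood and immune list, with a summed level of 8.77 against 1.22 to 1.49, and values that move by over 1.5 times or change their call without it are given both ways. Between 48.6% and 77.5% of probes were well above background on an array, and OC arrays were the lowest with 48.6% to 59.9%. The 12 Cumulus and Spi-C arrays were scanned on another scanner model than the 27 OC, IVF and TSA arrays and shared no slide with them. They were also read with version 10 of the Agilent Feature Extraction software, against version 9 for the 27. For comparisons across these 2 sets, group cannot be told apart from scanner or software version.

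RefSeq promoter windows (GRCm38.p6, 250 bases before to 50 bases after a transcript start) were on hand for 7 members, and 4 are shown because each holds a match to a motif searched for and belongs to a gene whose values are described at length, with Cyp11a1, Hsd3b1 and Inhba high in cumulus cells and Cyp19a1 high in oocytes. The windows were searched on both strands for AAGGTCA, the site of NR5A1 and related nuclear receptors. They were also searched for the half-site of the cyclic AMP response element, which is TGACG. Further searches were made for the GATA site AGATAA. The TATA box was searched for as TATAAA. Capitals mark the matches and each window is written along the strand of its gene.
Cyp11a1, chr9:57997774-57998073, plus strand: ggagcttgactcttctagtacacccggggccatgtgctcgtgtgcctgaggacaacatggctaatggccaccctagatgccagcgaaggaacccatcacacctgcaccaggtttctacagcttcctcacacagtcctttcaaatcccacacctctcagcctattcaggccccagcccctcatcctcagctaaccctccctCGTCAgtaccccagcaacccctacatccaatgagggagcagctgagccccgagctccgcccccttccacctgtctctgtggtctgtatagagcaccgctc
Hsd3b1, chr3:98859745-98860044, minus strand: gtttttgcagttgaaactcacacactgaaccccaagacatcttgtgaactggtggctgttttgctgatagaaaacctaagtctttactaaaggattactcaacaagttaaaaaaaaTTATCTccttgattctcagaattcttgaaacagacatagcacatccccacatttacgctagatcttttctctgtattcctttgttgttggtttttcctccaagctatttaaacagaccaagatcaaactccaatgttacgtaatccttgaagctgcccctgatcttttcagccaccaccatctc
Cyp19a1, chr9:54228865-54229164, minus strand: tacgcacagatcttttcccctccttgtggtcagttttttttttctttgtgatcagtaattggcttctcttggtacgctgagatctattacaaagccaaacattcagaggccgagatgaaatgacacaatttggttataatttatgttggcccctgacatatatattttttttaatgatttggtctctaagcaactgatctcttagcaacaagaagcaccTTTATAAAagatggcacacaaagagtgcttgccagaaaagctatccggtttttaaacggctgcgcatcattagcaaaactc
Inhba, chr13:16011601-16011900, plus strand: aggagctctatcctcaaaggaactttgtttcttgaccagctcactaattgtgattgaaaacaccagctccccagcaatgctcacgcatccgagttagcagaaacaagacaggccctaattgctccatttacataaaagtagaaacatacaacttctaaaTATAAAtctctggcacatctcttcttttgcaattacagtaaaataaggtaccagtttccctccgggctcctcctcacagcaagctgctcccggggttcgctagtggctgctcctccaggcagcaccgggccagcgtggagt

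The half-site in the Cyp11a1 window was read as CGTCA on the strand of the gene, and the GATA match in the Hsd3b1 window as TTATCT. The capitals in the Cyp19a1 window are 2 overlapping matches to TATAAA, 1 on each strand, and those in the Inhba window are 1 match. Over the 10 windows of the 7 members, AAGGTCA was in 0 windows, TGACG in 1, AGATAA in 1 and TATAAA in 3. The shares among all 32851 windows of the same length were 4.72% for AAGGTCA, 20.8% for TGACG, 11.2% for AGATAA and 13.6% for TATAAA. A match is a run of letters in these windows and not a measured binding site.

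Donor cumulus cells differed from embryos in almost the whole programme. Of the 10 members, 8 were higher and 1, Cyp19a1, lower in Cumulus than in IVF, where 56.3% of all probes were called. The median difference of the members was 6.61 on the log2 scale, against -0.14 over all probes. For the 8 higher members the Cumulus and IVF arrays did not overlap. Against OC, 8 members were higher and 2 lower in Cumulus, with all 10 not overlapping and 68.5% of all probes called, and the members' median was 5.36 against -1.15 over all probes. The share of all probes without overlap was not counted in any comparison, so that counts of overlap only describe the members. From OC to IVF no member was called higher and 7 were called lower, which was close to the 67.1% of all probes called, and their median was -1.88 against -0.88 over all probes. These medians move with the scaling of the arrays, since centring each array on its own median put the median of all probes at 0.75 for Cumulus minus IVF and -1.56 for IVF minus OC, and quantile normalization put it at 0.12 and -0.29. The calls of the members were then 9 higher and 0 lower with median centring, and 9 higher and 1 lower with quantile normalization, for Cumulus minus IVF. The 75th percentile that was subtracted was an intensity of 271 to 512 in OC and 997 to 1364 in IVF. An equal intensity therefore gives a higher level in OC than in IVF.

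**Figure D1:**
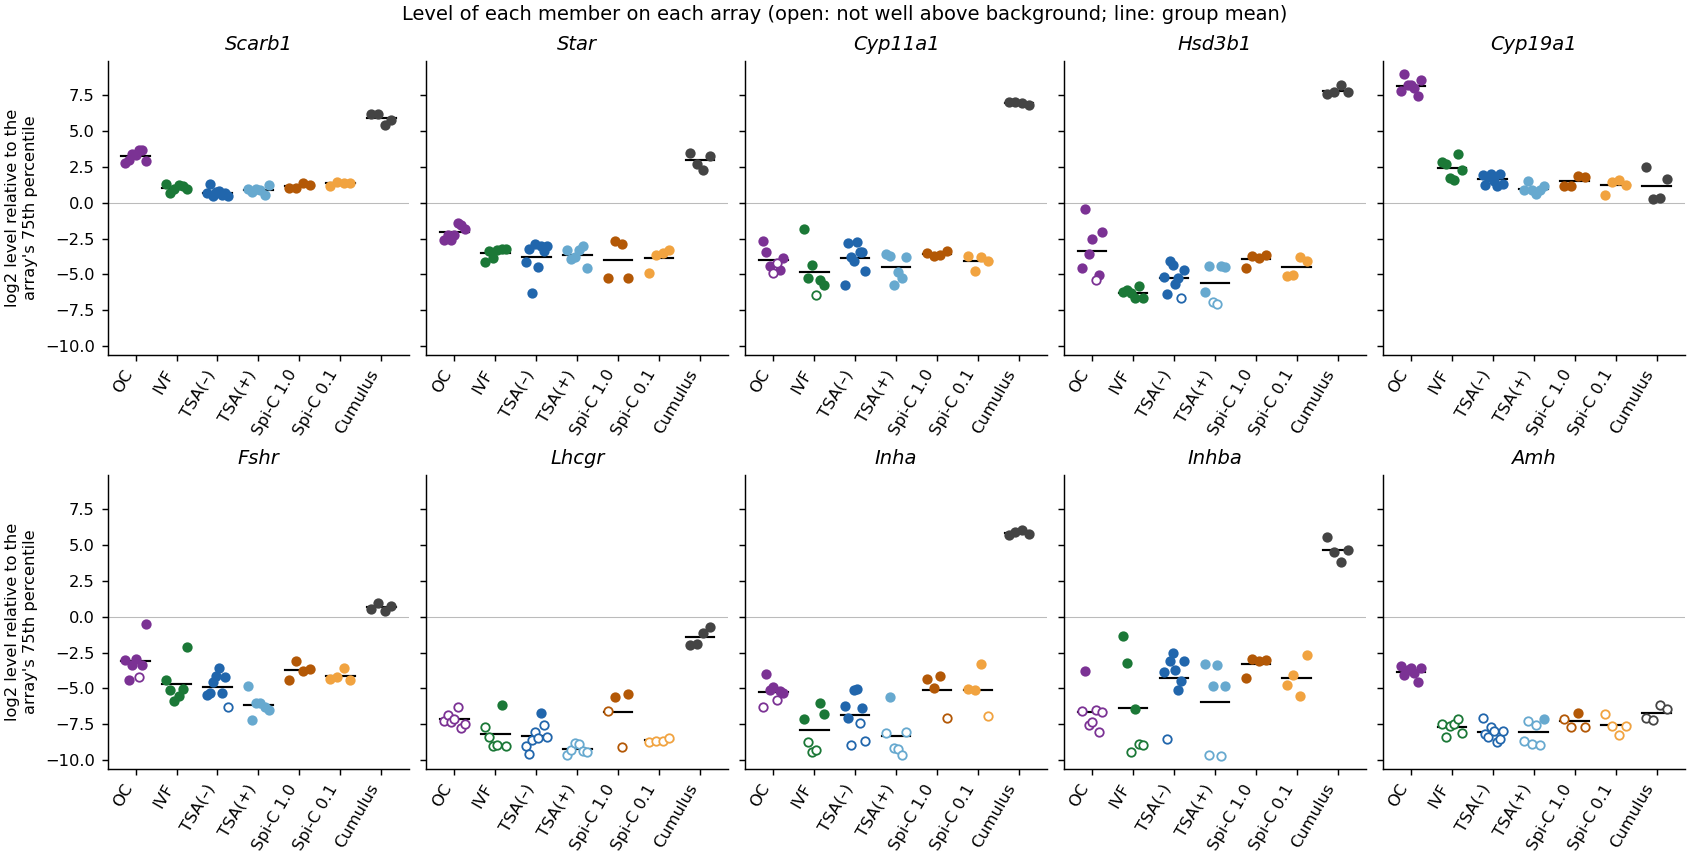
Level of the 10 members on each of the 39 arrays, as log2 intensity relative to the 75th percentile of the array; each point is 1 array, grouped by sample group, and each bar is the group mean. Cumulus arrays lie above all others for 8 genes, while the OC arrays hold the highest levels of Cyp19a1 (7.45 to 8.94) and Amh (-4.53 to -3.44).

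Cholesterol supply was carried by Scarb1, the receptor that takes up cholesterol from high-density lipoprotein, and Star, which moves cholesterol to the inner mitochondrial membrane. Scarb1 stood at 6.17, 6.19, 5.42 and 5.77 on the 4 Cumulus arrays, at 2.75 to 3.67 in OC (median 3.31) and at 0.68 to 1.31 in IVF (median 1.07). In the clones it lay at 0.44 to 1.29 in TSA(–) (median 0.66), at 0.51 to 1.25 in TSA(+) (median 0.91), at 1.02, 0.99, 1.40 and 1.23 in Spi-C 1.0 and at 1.19, 1.43, 1.39 and 1.38 in Spi-C 0.1. Scarb1 was thus well above background on every array. Its scaled levels lay in 3 tiers that did not overlap, with Cumulus highest, OC in the middle and all embryos lowest. Before scaling, the intensities were 1821 to 6518 in OC, 1624 to 3375 in IVF and 4212 to 7197 in Spi-C NT. The order of OC above embryos therefore holds for scaled levels only. The Cumulus minus IVF difference was 4.84 (SE 0.19, limma, adjusted p = 3.66e-22), and the IVF minus OC difference was -2.19 (SE 0.17, adjusted p = 3.17e-14).

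Star stood at 3.49, 2.69, 2.31 and 3.28 in Cumulus, at -2.61 to -1.43 in OC (median -2.23) and at -4.10 to -3.23 in IVF (median -3.33). The TSA(–) arrays lay between -6.31 and -2.91 (median -3.32), and the TSA(+) arrays between -4.56 and -3.00. The Spi-C 1.0 arrays gave -5.25, -2.70, -2.87 and -5.24, and the Spi-C 0.1 arrays gave -4.90, -3.67, -3.51 and -3.31. Cumulus and OC were separate from each other and from IVF, whereas the clones overlapped with IVF throughout. Star was higher in Cumulus than in IVF by 6.45 (SE 0.52, limma, adjusted p = 1.9e-13) and fell from OC to IVF by 1.45 on the log2 scale (SE 0.45, adjusted p = 0.00418). The latter call was lost without IVF replicate 1 (adjusted p = 0.0124), without OC replicate 5 (adjusted p = 0.0105) and with slide as a fixed block (adjusted p = 0.0264), but the difference was below 0 on both slides and all 4 scan days that held both groups. Before scaling, the median Star intensity was 79.4 in OC and 104 in IVF, so that this fall holds for scaled levels only.

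Among the steroidogenic enzymes, Cyp11a1 and Hsd3b1 formed the sharpest border between cumulus cells and everything else. Cyp11a1, the mitochondrial enzyme that cuts the side chain of cholesterol to give pregnenolone, stood at 6.84, 6.95 and 7.03 on 3 Cumulus arrays and between the latter values on the fourth. It lay at -4.87 to -2.70 in OC (median -4.18), at -6.45 to -1.80 in IVF (median -5.32), at -5.72 to -2.76 in TSA(–) (median -3.62) and at -5.71 to -3.61 in TSA(+) (median -4.32). The Spi-C 1.0 arrays gave -3.52, -3.75, -3.66 and -3.35, and the Spi-C 0.1 arrays gave -3.69, -4.74, -3.79 and -4.09. The 4 Cumulus arrays were close together (standard deviation 0.08) and far above all others, while OC, IVF and the clones overlapped. Cyp11a1 was higher in Cumulus than in IVF by 11.78 (SE 0.60, limma, adjusted p = 4.93e-19), a 3520-fold difference that was 5340-fold without IVF replicate 1. The highest IVF value, -1.80, belonged to IVF replicate 1, and the other IVF arrays lay at -6.45 to -4.34. The IVF minus OC difference was -0.80 and was not called (adjusted p = 0.157), but without IVF replicate 1 it was -1.40 and called (adjusted p = 0.00458).

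Hsd3b1, which turns pregnenolone into progesterone, stood at 7.57, 7.71, 8.23 and 7.73 in Cumulus, at -5.42 to -0.42 in OC (median -3.60) and at -6.64 to -5.84 in IVF. It lay at -6.64 to -4.09 in TSA(–) (median -5.21) and at -7.06 to -4.40 in TSA(+) (median -5.37). The Spi-C 1.0 arrays gave -4.56, -3.73, -3.89 and -3.67, and the Spi-C 0.1 arrays gave -5.14, -5.03, -3.76 and -4.06. IVF arrays were the tightest among the oocyte and embryo groups and lay below all OC and all Spi-C arrays but among the TSA(–) and TSA(+) arrays. The Cumulus minus IVF difference was 14.11 (SE 0.67, limma, adjusted p = 8.14e-20), or 17600-fold, and the IVF minus OC difference was -2.91 (SE 0.58, adjusted p = 3.2e-05). Mouse has several near-identical Hsd3b genes, and cross-hybridisation of their transcripts to this probe was not tested.

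Cyp19a1, the aromatase that makes oestrogen from androgen, was the exception among the enzymes. It was well above background on all 39 arrays and stood at 7.45 to 8.94 in OC, at 1.56 to 3.40 in IVF (median 2.48) and at 2.46, 0.22, 0.36 and 1.65 in Cumulus. It lay at 1.19 to 2.02 in TSA(–) (median 1.64) and at 0.57 to 1.48 in TSA(+) (median 0.89), at 1.17, 1.17, 1.85 and 1.78 in Spi-C 1.0 and at 0.54, 1.44, 1.57 and 1.24 in Spi-C 0.1. OC arrays were far above all others, and Cumulus arrays spread over the range of IVF and the clones. Cyp19a1 fell from OC to IVF by 5.75 on the log2 scale (SE 0.30, limma, adjusted p = 1.75e-18), which is 53.7-fold, and Cumulus lay below OC by 6.98 (a difference of -6.98, SE 0.34, adjusted p = 9.92e-20). The second probe of the gene was much dimmer, at -3.07 to -0.92 in OC and -7.50 to -3.95 in IVF, and also fell between them by 3.68 (SE 0.65, adjusted p = 5.36e-06). The Cumulus minus IVF difference of -1.24 (SE 0.35, adjusted p = 0.00255) rested on overlapping groups. It was -0.34 (adjusted p = 0.367) when arrays were centred on their medians, and its call was lost without IVF replicate 5 (adjusted p = 0.0102), Cumulus replicate 2 (adjusted p = 0.0306) or Cumulus replicate 3 (adjusted p = 0.0256).

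Both gonadotropin receptors were highest in Cumulus. Fshr, the receptor of follicle-stimulating hormone, stood at 0.55, 0.97, 0.40 and 0.74 there, at -4.43 to -0.50 in OC (median -3.37) and at -5.84 to -2.14 in IVF (median -5.06). It lay at -6.32 to -3.59 in TSA(–) (median -4.94) and at -7.18 to -4.83 in TSA(+) (median -6.16), and at -4.44 to -3.12 over the 8 Spi-C NT arrays. Cumulus was separate from every other group, and the OC, IVF and SCNT arrays overlapped with each other. The Cumulus minus IVF difference was 5.34 (SE 0.60, limma, adjusted p = 7.63e-10). Fshr fell from OC to IVF by 1.56 (SE 0.52, adjusted p = 0.00712), but this call was lost without any of OC replicates 1, 4 and 7 and IVF replicates 2 to 5 (differences of -1.54 to -1.13, adjusted p = 0.0117 to 0.0292) and with scan day as a block (-1.30, adjusted p = 0.017). Within the 4 scan days that held both groups the difference ran from -2.30 to 0.01. Before scaling, the median Fshr intensity was 34.2 in OC and 30.4 in IVF.

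Lhcgr, the receptor of luteinizing hormone and hCG, stood at -1.99, -1.91, -1.14 and -0.70 in Cumulus and was well above background on all 4 arrays. Elsewhere it was well above background on 0 of 7 OC arrays, 1 of 6 IVF arrays, 1 of 8 TSA(–) arrays, 0 of 6 TSA(+) arrays, 2 of 4 Spi-C 1.0 arrays and 0 of 4 Spi-C 0.1 arrays. The transcript was therefore measured mainly in cumulus cells, at least 13.6-fold higher than in OC (limma, adjusted p = 4.32e-12), where the lowest signal of probes well above background served as the bound. Its fitted difference between Cumulus and IVF was 6.76 (SE 0.54, adjusted p = 1.73e-13), in which 5 of the 6 IVF values were signals not well above background. The Spi-C 1.0 arrays gave -6.54, -5.57, -9.10 and -5.37 and the Spi-C 0.1 arrays gave -8.71, -8.68, -8.66 and -8.42, so that 3 arrays of the higher dose lay above the lower dose and 1 below it.

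Of the secreted factors, Inha encodes the alpha subunit of the inhibins. It stood at 5.68, 5.93, 6.06 and 5.75 in Cumulus, at -6.33 to -4.02 in OC (median -5.20) and at -9.42 to -6.02 in IVF (median -7.92). It lay at -8.96 to -5.04 in TSA(–) (median -6.71) and at -9.66 to -5.57 in TSA(+) (median -8.63), and the 8 Spi-C NT arrays gave -4.33, -4.98, -4.12 and -7.07 at the higher dose and -5.04, -5.13, -3.33 and -6.94 at the lower. Only the Cumulus arrays stood apart, and the gene was well above background on 3 of 6 IVF, 5 of 8 TSA(–), 1 of 6 TSA(+) and 6 of 8 Spi-C NT arrays. The Cumulus minus IVF difference was 13.74 (SE 0.79, limma, adjusted p = 2.29e-17), and the IVF minus OC difference was -2.63 (SE 0.68, adjusted p = 0.000875). The second Inha probe gave -0.81 for IVF minus OC and was not called (limma, adjusted p = 0.189). Before scaling, the median intensity of the main probe was 10.2 in OC and 6.05 in IVF.

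Inhba encodes the beta A subunit, which pairs with the alpha subunit in inhibin A and with itself in activin A. It stood at 5.56, 4.52, 3.81 and 4.62 in Cumulus, at -8.02 to -3.82 in OC (median -6.63) and at -9.40 to -1.33 in IVF (median -7.68). It lay at -8.55 to -2.49 in TSA(–) (median -3.79), at -9.68 to -3.33 in TSA(+) (median -4.84), at -4.26, -2.97, -3.06 and -3.02 in Spi-C 1.0 and at -4.78, -4.04, -5.51 and -2.70 in Spi-C 0.1. Its standard deviation was 3.40 in IVF, 2.95 in TSA(+) and 1.91 in TSA(–), wider than for the main probe of any other member in these groups, and it was well above background on 3 of 6 IVF arrays, 7 of 8 TSA(–) arrays, 4 of 6 TSA(+) arrays and all 8 Spi-C NT arrays. Inhba was 2050-fold higher in Cumulus than in IVF (SE of 1.33 and 95% interval of 8.31 to 13.70 on the log2 scale, limma, adjusted p = 4.15e-09), and 4140-fold higher without IVF replicate 1 (adjusted p = 1.78e-10). The highest IVF value, -1.33, again belonged to IVF replicate 1, the array with the high blood and immune markers, and their part in it was not tested.

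Amh, the anti-Müllerian hormone of growing follicles, was the other exception. It lay at -4.53 to -3.44 in OC (median -3.71) and was well above background on all 7 OC arrays, but on no Cumulus, IVF, TSA(–) or Spi-C 0.1 array and on 1 array each of TSA(+) and Spi-C 1.0. OC was at least 9.16-fold higher than IVF (limma, adjusted p = 1.49e-13) and at least 6.06-fold higher than Cumulus (adjusted p = 3.46e-09), and no overlap was seen in either pair. Among Cumulus, IVF and TSA(–), where the transcript was at background on every array, no fold is given.

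In cloned embryos every member that was higher in Cumulus than in IVF stood at under 5% of its level in donor cells, by group means of the main probe. Single Spi-C 1.0 arrays reached 7.27% for Fshr and 6.54% for Lhcgr. In TSA(–) the mean level was 2.75% of the Cumulus level for Scarb1, 2.15% for Fshr, 0.927% for Star and 0.863% for Lhcgr. It was 0.205% for Inhba, 0.0561% for Cyp11a1, 0.015% for Inha and 0.0115% for Hsd3b1. The same shares in IVF embryos, which received no cumulus nucleus, were 3.48% for Scarb1, 2.46% for Fshr, 1.14% for Star, 0.921% for Lhcgr, 0.0487% for Inhba, 0.0284% for Cyp11a1, 0.00733% for Inha and 0.00567% for Hsd3b1. Without IVF replicate 1 the IVF shares were 0.0242% for Inhba and 0.0187% for Cyp11a1. Signals near background limit the shares of Inha and Lhcgr, and Inha was well above background on 3 of 6 IVF, 5 of 8 TSA(–) and 1 of 6 TSA(+) arrays. For Scarb1, Fshr, Star and Lhcgr, the last of which was well above background on 1 of 6 IVF and 1 of 8 TSA(–) arrays, the TSA(–) share was below the IVF share, and for the other 4 it was above it. Without IVF replicate 1 the Lhcgr share of IVF was 0.855%, so that this order turned for Lhcgr. In TSA(+) the shares were 0.00926% for Hsd3b1, 0.895% for Fshr and 1.04% for Star. Spi-C 1.0 and Spi-C 0.1 held the highest shares of Inha (0.0496% and 0.0501%), Hsd3b1 (0.0286% and 0.0197%), Fshr (4.74% and 3.57%) and Scarb1 (3.77% and 4.29%) among embryo groups. Cumulus was called higher than TSA(–) for 9 of 10 members (56.1% of all probes called) and higher than Spi-C NT for 8 of 10 (57.0% of all probes called). The TSA(–) count includes Amh, whose transcript was well above background in neither group. Cyp19a1 was not called in either comparison, with differences of -0.44 and -0.17.

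**Figure D2:**
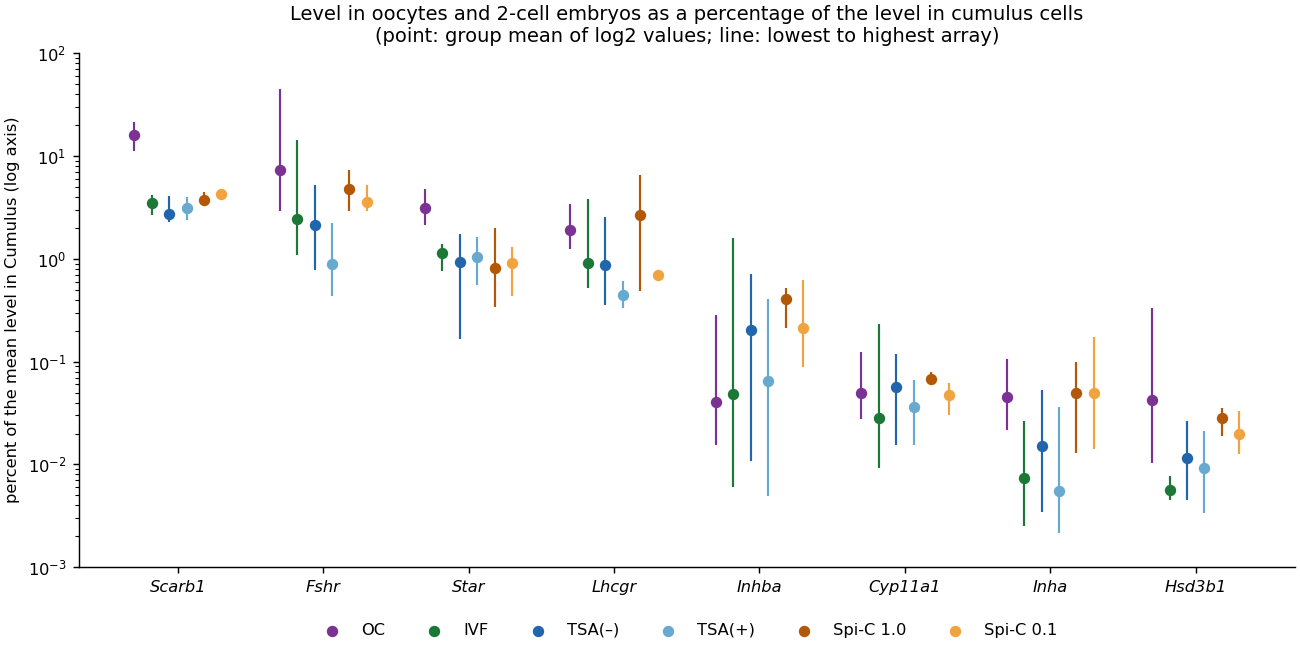
Mean level of 8 members in oocytes, IVF embryos and the 4 SCNT groups as a percentage of the Cumulus mean, on a logarithmic axis; each point is a group mean and the line through it runs from the lowest to the highest array. Scarb1 in OC holds the highest share, 15.9%, the lowest points (Inha, and Hsd3b1 in IVF at 0.00567%) rest on dim signals, and the SCNT points lie beside the IVF point for most genes.

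Untreated clones did not differ from IVF embryos in any member at the threshold. No member was called between TSA(–) and IVF, with 20.7% of all probes called, 2 members at an unadjusted p under 0.05 and 0 by Tukey's HSD, and every member's arrays overlapped between the groups. The median difference was -0.14, against -0.05 over all probes. Inhba differed by 2.08 (95% interval -0.18 to 4.33), Cyp11a1 by 0.98 (-0.03 to 1.99), Inha by 1.04 (-0.31 to 2.39) and Hsd3b1 by 1.02 (-0.12 to 2.15), so that several-fold differences lay within the intervals. Without IVF replicate 1, Cyp11a1 was called higher in TSA(–) than in IVF, by 1.58 (SE 0.42, limma, adjusted p = 0.00412), and its second probe by 2.21 (SE 0.54, adjusted p = 0.00195), while Inhba reached 3.08 (SE 1.06, adjusted p = 0.026). Within the slides that held both groups the Cyp11a1 difference ran from -0.98 to 2.98, above 0 on 2 of 3. The slide below 0 was the slide of IVF replicate 1, and the others gave 2.98 and 1.51. Cyp19a1 was lower by 0.79 (a difference of -0.79, SE 0.30, adjusted p = 0.04), and was below 0 on all 3 slides but not on 1 of 4 scan days.

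TSA(+) embryos differed from IVF embryos in 1 member of 10, with 21.2% of all probes called. Cyp19a1 was lower by 1.43 on the log2 scale (a difference of -1.43, SE 0.32, limma, adjusted p = 0.000573), or 2.7-fold, and no TSA(+) array reached the lowest IVF array. The difference held within every slide (-1.94 to -1.25) and every scan day (-2.10 to -1.25) that held both groups. Fshr differed by -1.46 (SE 0.53, adjusted p = 0.0344), which was called when scan day was a fixed block (-1.77, adjusted p = 0.00623). The median over the members was -0.27 against -0.23 over all probes, and with quantile normalization it was 0.00 against 0.01.

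TSA itself made no called difference among the members. Between TSA(+) and TSA(–), 0 of 10 members and 0.298% of all probes were called, with 4 members at an unadjusted p under 0.05 and 0 by Tukey's HSD. These 4 were Inha with -1.45 (95% interval -2.80 to -0.10, limma, adjusted p = 0.242; its second probe gave 1.31, adjusted p = 0.187), Fshr with -1.27 (-2.28 to -0.25, adjusted p = 0.166), Lhcgr with -0.95 (-1.87 to -0.04, adjusted p = 0.26) and Cyp19a1 with -0.64 (-1.24 to -0.04, adjusted p = 0.246). In all, 8 of the 10 differences were below 0, and their median was -0.64 against -0.11 over all probes. The groups overlapped for every member.

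In Spi-C NT embryos 3 members were called against IVF, where 31.0% of all probes were called. Inha was higher by 2.77 (SE 0.66, limma, adjusted p = 0.000953) and Hsd3b1 by 2.06 (SE 0.56, adjusted p = 0.00312), and Cyp19a1 was lower (a difference of -1.07, SE 0.30, adjusted p = 0.00375). The second Inha probe, well above background on 4 of 6 IVF and 1 of 8 Spi-C NT arrays, gave -0.67 (adjusted p = 0.336). The second, dimmer Cyp19a1 probe gave -1.09 (limma, adjusted p = 0.163). For Hsd3b1 every Spi-C NT array lay above every IVF array. The higher levels were nevertheless dim signals, with intensities of 65.6 to 183 for Hsd3b1 in Spi-C NT against 11.3 to 17.8 in IVF and 176100 to 238400 in Cumulus. For Inha the intensities were 17.2 to 246 in Spi-C NT and 1.46 to 15.7 in IVF. Both calls were lost with normexp background correction, which gave 0.40 for Hsd3b1 (adjusted p = 0.151) and 0.19 for Inha (adjusted p = 0.38). By Tukey's HSD with OC and Cumulus kept in the fit, the calls of Hsd3b1 and Cyp19a1 were lost. For Spi-C NT the paper ran this test on the 2-cell embryo groups alone, and that version was not repeated here. The Cyp19a1 call was lost without IVF replicate 1 (-0.98, adjusted p = 0.012), IVF replicate 2 (-1.01, adjusted p = 0.0102), IVF replicate 5 (-0.87, adjusted p = 0.0196) or Spi-C 0.1 replicate 1 (-0.96, adjusted p = 0.0112). Without IVF replicate 1, Inhba (3.60, adjusted p = 0.00656) and Cyp11a1 (1.61, adjusted p = 0.00252) were called higher as well. The Spi-C NT arrays differed from the IVF arrays in scanner model and in the version of the extraction software, and group cannot be told apart from either.

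**Figure D3:**
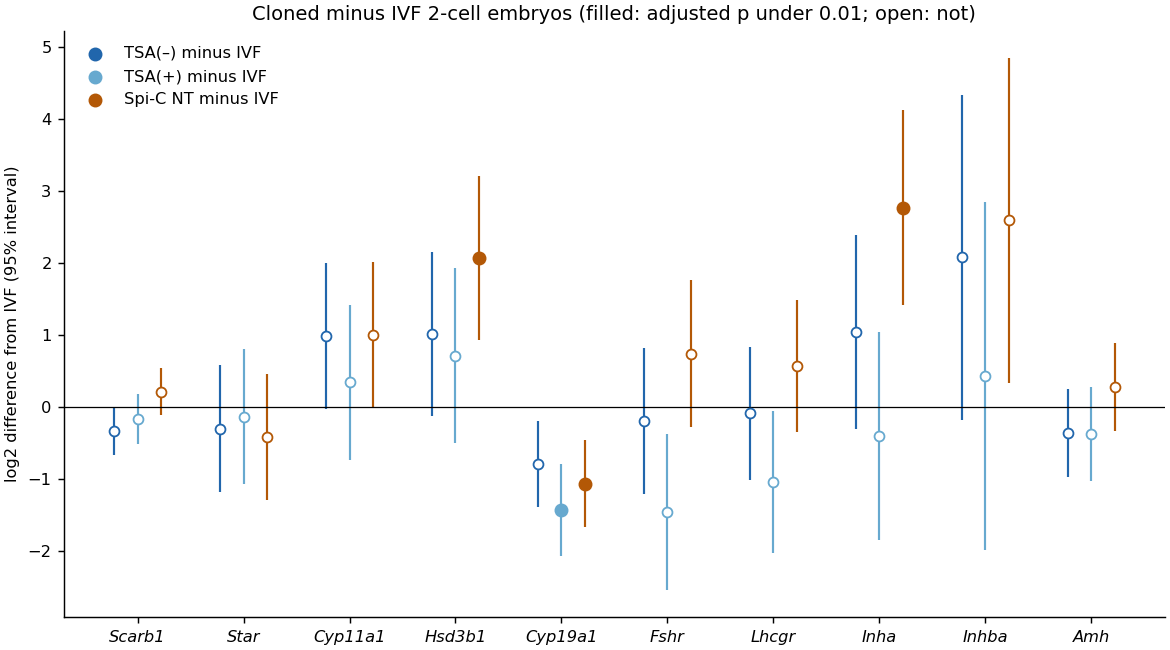
Difference of each SCNT group from IVF for the 10 members, as the log2 difference with its 95% interval; filled points passed an adjusted p of 0.01 and open points did not. The filled points are Cyp19a1 in TSA(+) and Spi-C NT, below 0, and Inha and Hsd3b1 in Spi-C NT, above 0.

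Spi-C NT differed from TSA(–) in 1 member, Scarb1, which was higher by 0.55 (SE 0.15, limma, adjusted p = 0.00583), while 15.7% of all probes were called. This call was lost without any 1 of 10 of the 16 arrays, and with median centring (0.37, adjusted p = 0.0548). Between the 2 doses of Spi-C mRNA no member was called, with 0.00506% of all probes called, 1 member at an unadjusted p under 0.05 and 0 by Tukey's HSD. That member was Lhcgr, with a difference of 1.97 (95% interval 0.77 to 3.17, limma, adjusted p = 0.931). The 2 doses lay on the same 2 slides with 2 arrays of each per slide.

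The 4 genes with 2 probes allowed a check within the array. For Cumulus minus IVF, Star and Cyp11a1 gave like values on both, with 6.45 and 6.76 for Star and 11.78 and 11.51 for Cyp11a1. Among the low levels of oocytes and embryos the Star probes differed more, with -1.45 (called) and -0.88 (adjusted p = 0.311) for IVF minus OC, -0.42 and 0.62 for Spi-C NT minus IVF and -0.12 and 2.10 (adjusted p = 0.0273) for Spi-C NT minus TSA(–). For Cyp19a1 the sign was shared but the size was not, with IVF minus OC differences of -5.75 and -3.68. The probes of Inha disagreed. The dimmer one stood at -3.84, -4.23, -5.91 and -5.60 in Cumulus and gave a Cumulus minus IVF difference of 1.24 (SE 0.65, limma, adjusted p = 0.0953), against 13.74 for the brighter one, so that the size of the Inha difference holds for 1 probe alone. Among embryos the 2 Inha probes differed in sign, with 1.04 and -1.44 for TSA(–) minus IVF, -1.45 and 1.31 for TSA(+) minus TSA(–) and 2.77 and -0.67 for Spi-C NT minus IVF, so that no direction for Inha among embryos is shared by both probes in these comparisons.

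**Figure D4:**
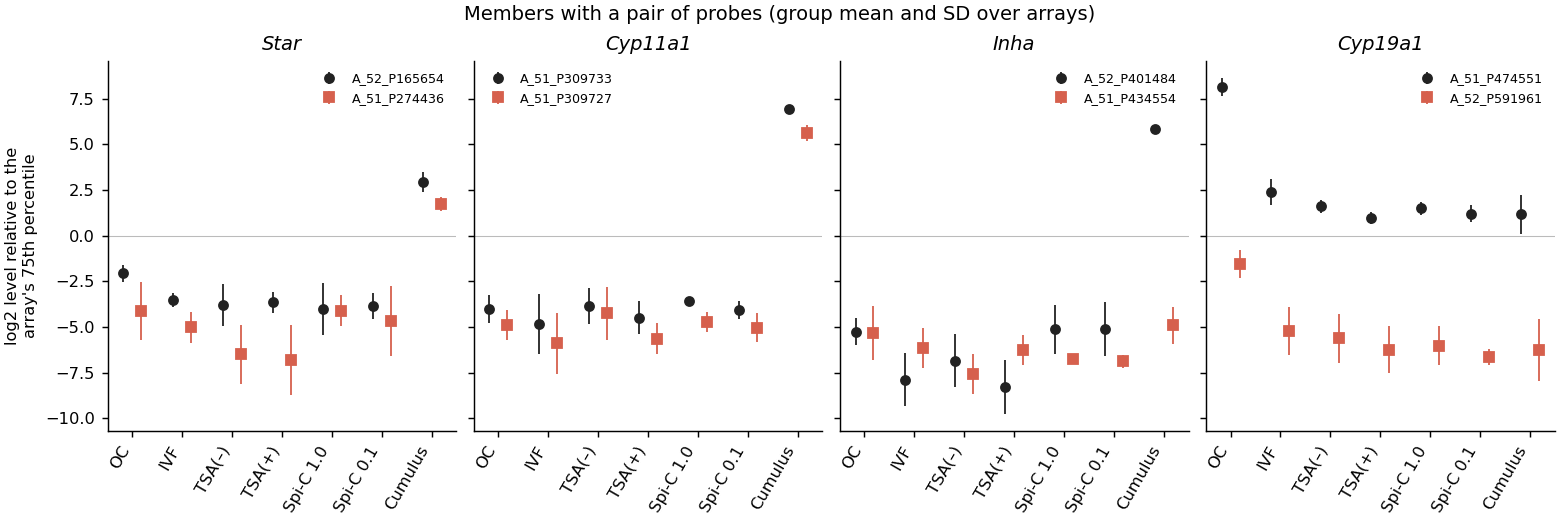
Log2 level of both probes of the 4 genes that had 2, as the mean of each group with its standard deviation over arrays. The probe with the higher mean and its partner are drawn as separate symbols. The Cumulus and IVF means were apart by like amounts on both probes of Star (6.45 and 6.76) and Cyp11a1 (11.78 and 11.51). For Inha they were apart by 13.74 on the brighter probe and 1.24 on the other.

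The wider pathways were described with 4 gene lists, each by its calls and its median. Their counts are read against the share of all probes called, which was 56.3% for Cumulus minus IVF, 67.1% for IVF minus OC, 20.7% for TSA(–) minus IVF, 21.2% for TSA(+) minus IVF and 31.0% for Spi-C NT minus IVF. Of 23 tested genes of steroid synthesis and cholesterol supply, 15 were higher and 3 lower in Cumulus than in IVF, with a median of 2.82 against -0.14 over all probes. Akr1c18, which inactivates progesterone, was higher by 14.81, Hsd3b6 by 9.14 and Hsd17b1, which makes oestradiol from oestrone, by 8.59. The lower ones were Stard5 (-2.28), Hsd3b7 (-1.07) and Stard4 (-0.85). From OC to IVF 5 rose and 14 fell. Against IVF, 2 genes were higher and 3 lower in TSA(–), and with quantile normalization 4 were higher and 2 lower. Srd5a1, a steroid 5-alpha reductase, was higher in TSA(–) by 1.44 and Npc1, a lysosomal cholesterol carrier, differed by -0.89. The counts were 3 higher and 5 lower in TSA(+), and 4 higher and 4 lower in Spi-C NT, with medians of -0.24 and 0.03.

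Of 25 tested genes of gonadotropin receptor signalling, 13 were higher and 5 lower in Cumulus than in IVF, with a median of 0.89. Arrb1, a beta-arrestin that uncouples such receptors, was higher by 5.93 and Sgk1, a kinase, by 5.56, whereas Pde8b, a phosphodiesterase that breaks down cyclic AMP, differed by -6.72, Cga, the common alpha subunit of the gonadotropins, by -6.04 and Prkar2a, a regulatory subunit of protein kinase A, by -5.90. Against IVF, 9 genes of this list were called higher and 0 lower in the TSA(–) clones and 16 were not called, where 20.7% of all probes were called in either direction, with a median of 0.25 against -0.05 over all probes. The largest were Arrb1 with 2.76, the adenylyl cyclase Adcy6 with 2.30 and Crem, a cyclic AMP-responsive transcription factor, with 1.96. In TSA(+) 8 were higher and 3 lower, and in Spi-C NT 11 were higher and 0 lower. These 3 comparisons share the IVF arrays. The mean of Arrb1 was -1.78 in IVF, 0.98 in TSA(–), 1.18 in TSA(+), 3.68 in OC and 4.15 in Cumulus. The origin of its transcript in the clones was not tested.

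Of 23 tested genes of activin, inhibin and AMH signalling, 7 were higher and 12 lower in Cumulus than in IVF, with a median of -0.83 that became 0.07, with 7 higher and 8 lower, when arrays were centred on their medians. Fst, which binds and blocks activin, was higher by 8.41, Smad5 by 7.24 and Inhbb, the beta B subunit, by 6.34. The growth factor genes of the oocyte itself were among the lower ones, with Gdf9 at -6.82 and Bmp15 at least 15300-fold lower in Cumulus, where it was at background, and the co-receptor Tgfbr3 was at least 26.8-fold lower. In TSA(–), with 20.7% of all probes called, 3 genes were higher than in IVF and 1 lower (3 and 0 with quantile normalization), namely Smad5 (3.11), Acvr2b (2.32), Acvr1 (0.78) and Smad4 (-0.46). The counts were 1 higher and 2 lower in TSA(+) and 2 higher and 6 lower in Spi-C NT.

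Of 23 tested genes for transcription factors of steroidogenic cells, 10 were higher and 4 lower in Cumulus than in IVF, with a median of 0.46, and 13 were higher and 2 lower with median centring. Nr4a1, an early response factor, was higher by 8.18, Cebpb by 6.06 and Gata6 by 3.82, while the oestrogen receptor genes Esr1 and Esr2 differed by -2.26 and -1.52. In TSA(–) 5 of the 23 were called, close to the 20.7% of all probes, namely Creb1 (1.38) and Ctnnb1 (0.61), higher, and Wt1 (-3.46), Esr2 (-1.06) and Foxo1 (-0.56), lower. TSA(+) gave 3 higher and 3 lower, and Spi-C NT gave 2 higher and 5 lower. Between TSA(+) and TSA(–) none of the 4 lists held a called gene.

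**Figure D5:**
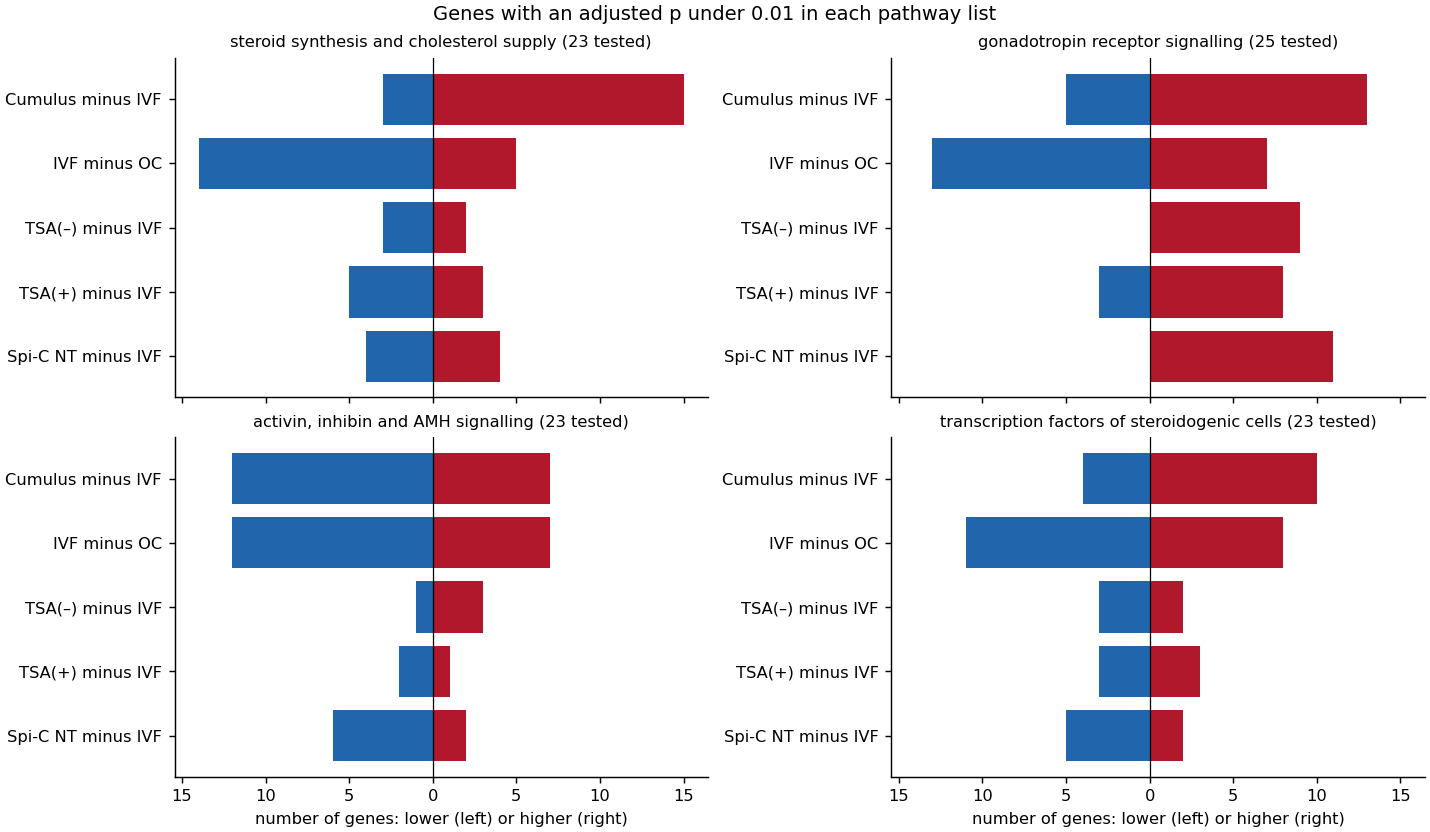
Number of genes called higher (red, to the right) and lower (blue, to the left) in each comparison for the 4 pathway lists at an adjusted p of 0.01. The gonadotropin receptor signalling list has 9 genes higher and 0 lower in TSA(–) than in IVF.

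Because Inhba had the largest TSA(–) minus IVF difference among the members well above background on every Cumulus array, the genes most like it were read from 18559 genes by Pearson's r over the 39 arrays. The closest were Retsat (r = 0.883), Sfxn3 (r = 0.882) and Gstm2 (r = 0.877). The points share libraries, and the 4 Cumulus arrays, which lie far above the others, are among them, so that these values are a description.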

How the data were processed

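RNA of 39 samples in 7 groups was measured on Agilent 44 K one-colour arrays. The deposited scanner files hold intensities per spot from Agilent Feature Extraction, background-subtracted by that software before the authors deposited them. The submitters' processing notes give version 9.5.3.1, but the 12 Cumulus and Spi-C arrays carry version 10 and the other 27 version 9. A deposited table holds the authors' processed log2 values and served as an alternative. Here log2 processed signal minus the 75th percentile of each array was used, outlier spots (1820) were left out, and probes with an intensity of at least 10 on 1 or more IVF or SCNT arrays were tested (39537). Limma 3.58.1 in R 4.3.3 fitted all 7 groups at once, with Benjamini-Hochberg adjustment and a threshold of 0.01, and the fit was tested on simulated data. The number of arrays limits the precision of every difference.

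Accessions were matched to RefSeq (GRCm38.p6), which gave 27821 probes 1 symbol, 32 several and 13321 none. The arrays' design files differed in the accessions of 9775 probes. The main probe of a gene had the highest mean over all arrays. A probe not well above background on any array of a group was given a bound only, from the lowest signal among probes well above background on each array or its own signal where that was higher. Members and lists were chosen with earlier results of these data known. The text names all 10 members, up to 3 called genes per list and direction for Cumulus minus IVF and TSA(–) minus IVF, and the genes most alike to 1 member. Marker lists for granulosa, oocyte, blood and immune, theca and stroma, endothelial, oviduct and 2-cell embryo genes were summed per array; the lists of theca and stroma (0.935 to 5.3 times the 75th percentile), endothelium (2.48 to 3.83) and the 2-cell embryo (0.021 to 0.0397) were low in Cumulus. Alternatives were quantile normalization, median centring, normexp correction with an offset of 50 on median signals, the authors' processed values, no or a stricter filter, outlier spots kept, only the groups compared, 2 experiments fitted apart, slide or scan day as a block, a block on the replicate number, other thresholds, any probe of a member, a one-way test with Tukey's HSD as in the study's methods, and leaving out each array.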

Additional observations from a re-analysis of the deposited data

Results flagged for a closer look

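In 10 of 98 combinations of a probe and a group, 1 array lay far from the others of its group, with a gap to its nearest neighbour that was large against the range of the group; chance alone gives about 1 in 20. For the brighter Star probe this was TSA(–) replicate 3 at -6.31, with its nearest neighbour at -4.48. For the second Star probe they were TSA(+) replicate 1 at -3.00, next to -6.92, and Cumulus replicate 3 at 2.34, next to 1.62. The second Cyp11a1 probe read -3.11 on OC replicate 1, next to -4.69, and Fshr read -0.50 on OC replicate 7, next to -2.94. The second Inha probe read -7.77 on TSA(+) replicate 4, next to -6.21. Inhba accounted for 3 of the 10, with OC replicate 2 at -3.82 next to -6.49, TSA(–) replicate 2 at -8.55 next to -5.12, and Spi-C 1.0 replicate 1 at -4.26 next to -3.06. Scarb1 read 1.29 on TSA(–) replicate 2, next to 0.84. All are levels on the log2 scale relative to the 75th percentile of the array.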

How the results depend on the processing

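The members gave 48 called differences over 11 comparisons, and none changed sign under any alternative or with any array left out. Of them, 41 were called under every alternative that gave a value and 43 with every array left out. Of the 62 differences that were not called, 25 changed sign and 8 were called under another processing or block, or 10 with a threshold of 0.05 counted too. Counts of called members moved in the comparisons between embryos. For TSA(–) minus IVF 1 member was called at an adjusted p under 0.05, and 0 to 1 with 1 array left out. For TSA(+) minus IVF it was 2 at an adjusted p under 0.05 and 2 with scan day as a block. For Spi-C NT minus IVF it was 1 by Tukey's HSD, and 2 to 4 with 1 array left out. For Spi-C NT minus TSA(–) it was 0 with median centring, 0 when at least 2-fold was asked, 2 with normexp, 2 at an adjusted p under 0.05 and 0 to 1 with 1 array left out. With 1 array left out it was 8 to 9 for Cumulus minus IVF and 6 to 7 for IVF minus OC. In no pair of groups did every set of same-numbered replicates deviate together, and the main fit did not pair samples. This rule cannot show that no samples were paired, since a weak or partial pairing would not meet it. With the replicate number as a block, 0 members were called for Spi-C NT minus TSA(–), Hsd3b1 fell short for Spi-C NT minus IVF (1.97, limma, adjusted p = 0.012) and Fshr for IVF minus OC (-1.30, adjusted p = 0.0174). Called genes of the steroid synthesis list between TSA(–) and IVF were 8 with normexp against 5. Fixed blocks of slide or scan day gave no value for Cumulus, nor for Spi-C NT against the earlier arrays, whereas slide as a random block did. The cause of these changes was not tested. Signals near background limited Amh, Lhcgr and Inha in embryos.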
